A study of Arabidopsis thaliana with 2 samples.

Results

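Hotspots of single-stranded RNA are stretches of the Arabidopsis thaliana genome, each on 1 strand, that the authors listed from a sequencing library of single-stranded RNA. The pericentromeric hotspots described here are those whose start lies in a fixed window around the centromere of each nuclear chromosome: 12 to 17.5 Mb on chromosome 1, 1.5 to 6.5 Mb on chromosome 2, 11 to 16.5 Mb on chromosome 3, 2 to 6 Mb on chromosome 4 and 9.5 to 15.5 Mb on chromosome 5. They number 2105 of the 33187 listed hotspots (6.34%). A further 30680 lie on the rest of the same 5 chromosomes, and 402 on the organelle genomes were not compared. The tissue was immature flower bud clusters of the accession Col-0, with no treatment or mutant named in the labels. A second library from the same tissue held RNA bound to ribosomes, taken from pooled monosome and polysome fractions, and it is used here for the ribosome-bound level of genes. Each assay had 1 library, so no difference below has a replicate check or a p-value, and every interval is a 95% exact interval that covers counting error only. Its label mentions a nuclease for double-stranded RNA together with RNase ONE, which is known as an enzyme for single strands, so the first library is described by its name.

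A pericentromere is the chromatin on either side of a centromere. In Arabidopsis it is known for tandem satellite repeats, dense transposable elements and pseudogenes, few protein-coding genes, heavy DNA methylation and arrays of ribosomal RNA genes. RNA that stays unpaired is known to be more open to binding proteins and nucleases than RNA folded into helices. The windows fitted their label in the reference sequence. Tandem sequence with a period of 178 nt, the centromere satellite of this species by its length, covered 179 kb inside the windows and 0.1 kb outside them. Unknown bases numbered 183217 inside and 2521 outside, so part of the windows could hold no hotspot.

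The strongest 4 pericentromeric hotspots held one repeated sequence, and they are printed first because no other hotspot of the windows came near their scores. No formula for the score was found in the labels or the file. Most scores equal the value that a whole number of reads from 1 to 6 would give under a log-like scale, so each score is also given as read equivalents on that scale. These 4 stood at 42439, 1514, 1507 and 720 read equivalents, and the next 233 hotspots were tied at 6. The sequences are from RefSeq (TAIR10.1), 5′ to 3′ on the strand of the hotspot, and capitals mark bases that differ from the commonest copy of the repeat in the best alignment.
commonest copy, chr4:3055217-3055326 (+): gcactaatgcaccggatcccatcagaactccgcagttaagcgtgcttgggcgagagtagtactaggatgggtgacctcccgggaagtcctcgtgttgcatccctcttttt
hotspot at chr5:11316208-11316258 (+), score -16.37: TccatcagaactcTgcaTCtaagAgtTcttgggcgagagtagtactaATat
hotspot at chr3:13715029-13715078 (-), score -11.56: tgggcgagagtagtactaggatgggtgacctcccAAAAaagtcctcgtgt
hotspot at chr3:13711487-13711564 (-), score -11.56: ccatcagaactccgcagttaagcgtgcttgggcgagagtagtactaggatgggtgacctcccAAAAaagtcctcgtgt
hotspot at chr3:13843537-13843596 (+), score -10.49: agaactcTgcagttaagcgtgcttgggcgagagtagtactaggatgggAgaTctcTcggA

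The strongest hotspot was the most diverged, with 8 bases unlike the commonest copy. Those at chr3:13715029 and chr3:13711487 shared the same 3 substitutions and 1 inserted base. The hotspot at chr3:13843537 differed at 5 bases. From general knowledge the repeat reads as the nuclear 5S ribosomal RNA gene, which this species carries in pericentromeric arrays; the annotation used here marks no gene at any of these 4 places, and all 4 counted as intergenic. A 50 nt core of the repeat, allowing up to 20% differing bases, occurred 551 times in the genome, of which 550 lay inside the windows. Chromosome 3 held 387 of them and chromosome 5 held 137, against 13 on chromosome 4, 7 in the window of chromosome 2 and 6 on chromosome 1. The commonest distance between neighbouring copies was 506 nt, found for 63 of 545 neighbouring pairs. Only 6 of the 550 copies lay under a hotspot on the same strand, the 4 above and 2 with at most 6 read equivalents. In the rest of the chromosomes 19 hotspots stood above 6 read equivalents, and all 19 lay in annotated genes. Where reads fit many copies, the place given to them depends on the authors' rule for such reads, which neither the labels nor the file state.

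A pair of rubisco genes showed how near-identical sequence appears in the list. RBCS3B and RBCS1B encode small subunits of rubisco, the enzyme of carbon fixation, and lie close together in the window of chromosome 5. Their hotspots covered the same 108 nt of coding sequence with no differing base and had the same score. The matching stretch of RBCS2B differed at 1 base and carried a hotspot over 103 of the 108 nt. The stretch of RBCS1A, which lies outside the windows on chromosome 1, differed at 8 bases and was also under a hotspot over its whole length. Capitals mark bases that differ from RBCS3B.
RBCS3B, chr5:15377549-15377656 (-): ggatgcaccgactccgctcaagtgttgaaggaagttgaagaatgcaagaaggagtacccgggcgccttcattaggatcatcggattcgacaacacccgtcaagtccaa
RBCS2B, chr5:15381251-15381358 (-): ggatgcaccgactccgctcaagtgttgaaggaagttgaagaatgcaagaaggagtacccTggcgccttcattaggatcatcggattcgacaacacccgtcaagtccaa
RBCS1A, chr1:25048510-25048617 (-): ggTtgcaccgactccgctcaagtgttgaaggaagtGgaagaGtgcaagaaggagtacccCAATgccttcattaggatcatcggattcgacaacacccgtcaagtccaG

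The scores corresponded to 5.67 read equivalents for RBCS3B and RBCS1B, 4.77 for RBCS2B and 4.08 for RBCS1A. None of these is a whole number. The light-harvesting genes LHCB2.1 and LHCB2.2, which encode chlorophyll-binding proteins of photosystem II, gave the opposite picture. LHCB2.1 had a hotspot of 57 nt at 3.27 read equivalents, while the matching stretch of LHCB2.2 differed at 1 base, marked by a capital, and had none. The ribosome-bound levels of both genes overlapped in their counting intervals, at 34.9 RPKM (31.4 to 38.6) for LHCB2.1 and 33.5 RPKM (30.03 to 37.2) for LHCB2.2. In these levels a clone counted on average as 0.539 for LHCB2.1 and 0.492 for LHCB2.2. Whether both genes shared clones was not tested, so the levels may not be separate measures of each gene.
LHCB2.1, chr2:1823705-1823761 (-): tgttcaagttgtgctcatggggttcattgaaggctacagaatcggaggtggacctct
LHCB2.2, chr2:1799692-1799748 (-): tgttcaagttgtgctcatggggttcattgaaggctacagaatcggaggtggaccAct

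Hotspots were sparse in the pericentromeres. The windows held 81.0 hotspots per Mb (77.5 to 84.5) and the rest of the chromosomes 329 per Mb (326 to 333), a density 4.07-fold lower inside (3.89 to 4.25). The windows make up 21.8% of nuclear length and 6.42% of nuclear hotspots. Chromosome 3 had the lowest window density, 57.5 per Mb (51.3 to 64.2), which was 6.08-fold below its arms (5.43 to 6.83). Chromosome 2 had the highest, 99.8 per Mb (91.2 to 109), and the smallest fold, 2.95 (2.69 to 3.24). In that window 199 of the 499 hotspots lay in 1 block of mitochondrial sequence described further on, and outside the block it held 64.0 per Mb (57.0 to 71.7). Chromosomes 1, 4 and 5 stood between them, at 79.3, 70.5 and 95.3 per Mb, with folds of 4.21, 4.46 and 3.59.

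**Figure D1:**
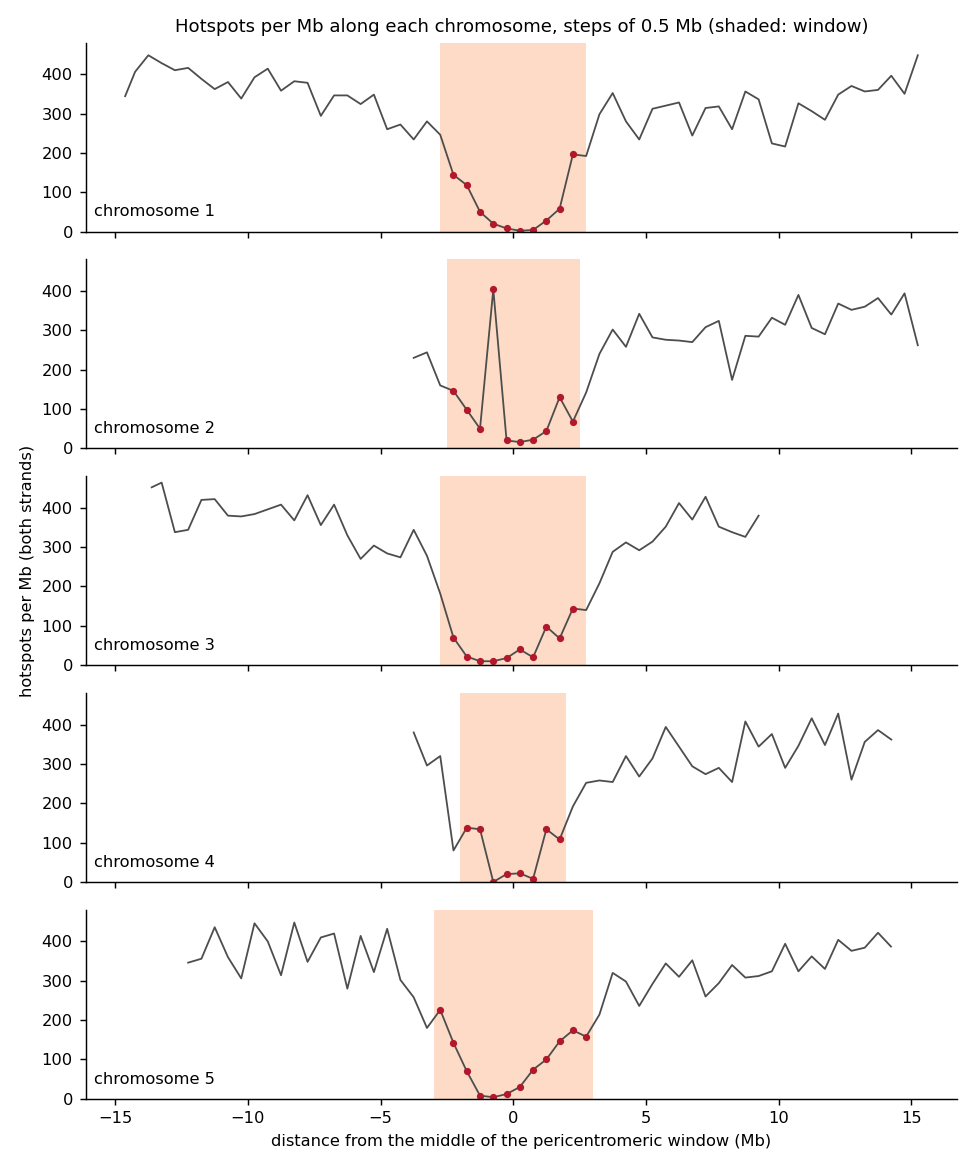
Hotspots per Mb of both strands in steps of 0.5 Mb along each chromosome, against the distance in Mb from the middle of the window; the window is shaded and the steps wholly inside it carry points. Steps inside ranged from 0 to 404 per Mb with a median of 54, the peak of 404 being on chromosome 2, and the other steps ranged from 80 to 464 with a median of 334.

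The fall was gradual and reached into the arms. Hotspots stood at 189 per Mb in the 0.5 Mb just outside the window edges, 151 per Mb in the 0.5 Mb just inside, and 46.4 per Mb more than 1 Mb inside. With the windows narrowed by 1 Mb at each end, their density was 0.149 times that of the rest. The inner density was 12.5 per Mb on chromosome 4, 30.9 on chromosome 3, 31.4 on chromosome 1, 55.5 on chromosome 5 and 92.7 on chromosome 2, where the mitochondrial block lies in this inner part. At 2 left edges it went the other way, with 138 per Mb just inside and 80 just outside on chromosome 4, and 226 and 180 on chromosome 5.

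Fewer genes went with fewer hotspots. The windows held 90 protein-coding genes per Mb and the rest 270 per Mb, 2.99-fold more. Hotspots on mRNA exons came to 0.467 per kb of annotated exon in the windows and 0.615 per kb in the rest, a ratio of 0.759 (0.720 to 0.799). Exons of protein-coding genes covered 6.18% of both strands of the windows and 23.5% of the rest. Counting hotspots of every class, on genes or not, there were 0.8996 per protein-coding gene in the windows and 1.22 outside. The difference per kb of exon was therefore 1.32-fold (1.25 to 1.39), counting hotspots on mRNA exons only. The 4.07-fold difference per Mb counted hotspots of every class, so these folds do not compare the same hotspots.

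The longest stretch without a hotspot in each window exceeded any outside the windows. On chromosome 1 it measured 709 kb and separated a hotspot in exons of AT1G38131 from one in the transcribed pseudogene AT1G40089. On chromosome 4 the gap was 663 kb, between a hotspot in AT4G05631 and an intergenic one whose sequence contains a 20-mer found 2086 times in the genome. The gap on chromosome 5 was 464 kb and ended at an exon of AT5G33280. That on chromosome 3 was 382 kb and began after an exon of AT3G30390. The shortest of these 5, 262 kb on chromosome 2, ended at a hotspot in MGDC, a gene for a galactolipid synthase. Outside the windows the longest gap of a chromosome was 58.3 to 155 kb. The gaps held 5 to 14 protein-coding genes and 51 to 134 pseudogenes each. In the gap of chromosome 1, none of the 6 protein-coding genes had a ribosome-bound RPKM above 0, whereas 8 of 12 did in that of chromosome 2.

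Strands were close to even. The plus strand carried 52.9% of pericentromeric hotspots (50.8 to 55.1) and 49.6% of the others (49.1 to 50.2). The surplus was largest on chromosome 1, with 262 hotspots on the plus strand and 174 on the minus strand, or 60.1% (55.3 to 64.7). The windows of chromosomes 2, 3, 4 and 5 ranged from 47.5% to 52.8%, each with an interval that included 50%. Without chromosome 1 the share was 51.05% (48.6 to 53.5). In the window of chromosome 1 the plus strand also held 56.3% of the annotated exon length. Per kb of exon, plus and minus strand hotspots stood at a ratio of 1.16 (0.927 to 1.44) there and 1.02 (0.920 to 1.13) over all windows.

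Lengths did not separate the pericentromeres from the arms. The median length was 64 nt in both, with quartiles of 55 and 74 nt in both, and 7.46% of hotspots were at least 100 nt long inside and outside. The longest pericentromeric hotspot measured 200 nt and the longest elsewhere 1533 nt. The pericentromeric one lay in the coding sequence of VFB3, a gene for an F-box protein, the substrate-binding part of a ubiquitin ligase. It is printed because it shows a hotspot free of repeated sequence, with no 20-mer found elsewhere.
VFB3, chr4:4198095-4198294 (-): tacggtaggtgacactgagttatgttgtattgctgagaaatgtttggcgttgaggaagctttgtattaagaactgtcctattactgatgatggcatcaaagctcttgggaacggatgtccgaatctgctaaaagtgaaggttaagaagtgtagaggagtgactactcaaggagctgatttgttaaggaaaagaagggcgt

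It corresponded to 5 read equivalents and had a GC content of 42%. The next longest were 185 nt in an intron of AT1G45229, 184 nt in exons of AT5G27240, 179 nt in MAPKKK9 and 179 nt in the transcribed pseudogene AT4G08991. GC content was also alike, with a median of 41.5% in the windows and 42.1% elsewhere.

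Median scores were the same, -2.62 inside and outside, which is 3 read equivalents. What differed was the share of scores off the whole steps. In the windows 312 hotspots (14.8%, 13.3 to 16.4) lay at a non-whole value (tolerance 0.01), against 6.15% (5.88 to 6.43) elsewhere. Values at a multiple of 0.5 between whole numbers made up 6.51% inside and 2.04% outside. By chromosome the share in the windows was 8.03% on chromosome 1, 27.9% on chromosome 2, 13.6% on chromosome 3, 12.1% on chromosome 4 and 10.7% on chromosome 5. The arms ranged from 5.63% to 6.94%, below each of these.

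**Figure D2:**
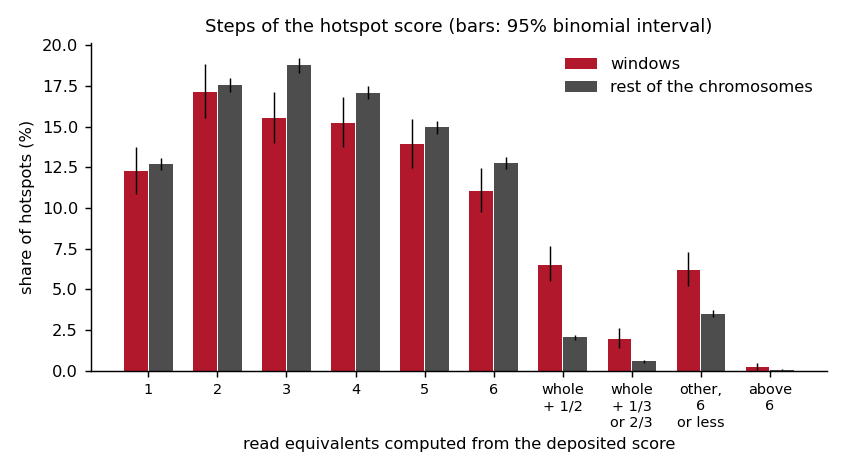
Share of hotspots in percent at each step of the score, given as read equivalents, for the windows and the rest of the chromosomes; lines on the bars are 95% binomial intervals. Each whole step held a smaller share in the windows than outside, and the non-whole values together held 14.8% against 6.15%.

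Non-whole values went with repeated sequence. Among pericentromeric hotspots with no 20-mer elsewhere in the genome, 4.27% (3.25 to 5.50) had a non-whole value, and among those with at least 1 such 20-mer 33.1% (29.8 to 36.5) did. Hotspots with at least 1 repeated 20-mer made up 36.6% of the pericentromeric ones (34.6 to 38.7) and 20.5% of the others (20.01 to 20.9). Those made entirely of repeated 20-mers made up 14.3% (12.9 to 15.9) inside and 1.39% (1.26 to 1.52) outside. Without hotspots holding mitochondrial 20-mers, most of which lie in 1 block on chromosome 2, the share made entirely of repeats was 5.88% (4.87 to 7.03) inside, that with any repeat 29.97% (27.9 to 32.1) and that with a non-whole value 10.3% (9.01 to 11.8). Among hotspots without repeats the shares of non-whole values were closer, 4.27% inside and 3.26% (3.04 to 3.49) outside.

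A block of mitochondrial sequence supplied the densest stretch of any window. The nuclear genome of this accession is known to carry a large copy of mitochondrial DNA near the centromere of chromosome 2. There, 198 hotspots held a 20-mer of the mitochondrial genome, spread over 314 kb at chr2:3187348-3501073. That span carried 634 hotspots per Mb (549 to 729), against 64.0 per Mb (57.0 to 71.7) in the remainder of that window. Its ends were set by the first and last of these hotspots, which the intervals do not allow for. In fixed steps of 0.5 Mb, the densest step of any window held 404 per Mb, on chromosome 2. Besides the 198, only 2 pericentromeric hotspots and 4 outside the windows held a mitochondrial 20-mer. For 190 of the 200 in the windows, every 20-mer was found in the mitochondrial genome. Of the 198, 57.6% had non-whole values, 109 lay on the plus strand and 89 on the minus strand. They fell in mRNA exons (56), between genes (53), opposite genes (45) and in pseudogenes (25). Reads of mitochondrial transcripts can fit these places as well, and their part in the signal was not tested. Without hotspots holding mitochondrial 20-mers, an alternative chosen after seeing the data, the windows were 0.222 times as dense as the rest, against 0.246 times with them.

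Pericentromeric hotspots lay more often outside mRNA. Exons of protein-coding genes on the same strand took 71.3% of them (69.3 to 73.2) and 87.9% of the others. Pseudogenes took 6.75% (5.71 to 7.90) against 0.681%, and intergenic sequence 7.41% (6.33 to 8.61) against 1.23%. The antisense strand of genes took 5.84% (4.88 to 6.93) against 3.90%, non-coding RNA genes 2.76% (2.099 to 3.55) against 1.13%, and introns 5.99% (5.01 to 7.09) against 5.17%. Over all pericentromeric hotspots, the interval of introns reached the share outside. The mRNA share was lowest on chromosome 2, at 53.5%, then 66.8% on chromosome 3, and 78.4% to 79.5% on chromosomes 4, 1 and 5. Without hotspots holding mitochondrial 20-mers the mRNA share of all windows was 75.7%, that of pseudogenes 6.14% (5.11 to 7.32) and that of intergenic sequence 5.35% (4.39 to 6.46). The antisense share was then 4.09% (3.25 to 5.08), an interval that includes the 3.91% outside. All of these are shares of hotspots and not densities. By number, 156 intergenic hotspots lay in the 26 Mb of the windows and 376 in the 93.1 Mb of the rest. Without mitochondrial 20-mers the windows held 102 and the rest 376. Antisense hotspots of any sequence numbered 123 inside and 1198 outside. Within mRNA exons, coding sequence took 82.6% of the hotspot bases inside and 82.1% outside.

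**Figure D3:**
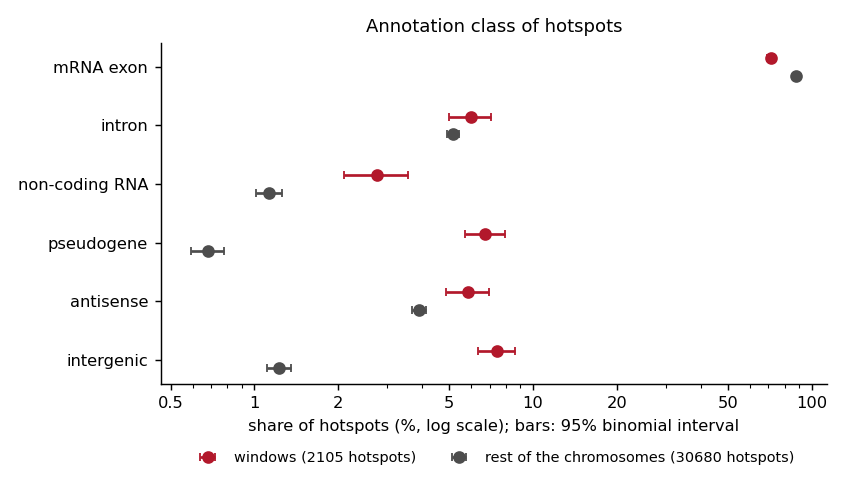
Share of hotspots in percent, on a log axis, by annotation class for the windows (2105 hotspots) and the rest of the chromosomes (30680 hotspots), with 95% binomial intervals. Pseudogene and intergenic hotspots take 6.75% and 7.41% inside the windows against 0.681% and 1.23% outside.

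Pseudogenes are dense in the windows. They covered 15.4% of both strands of the windows and 1.35% of the rest. Per Mb of pseudogene there were 17.8 hotspots in the windows and 83.3 outside, 4.69-fold fewer inside (3.77 to 5.84). A hotspot overlapped 80 of 3484 pericentromeric pseudogenes (2.30%, 1.82 to 2.85) and 119 of 1359 others (8.76%, 7.31 to 10.4). The annotation calls 366 of those in the windows transcribed, and 31 of them (8.47%, 5.83 to 11.8) had a hotspot, against 49 of the 3118 not called transcribed (1.57%, 1.16 to 2.07). Outside, 560 of the 1359 were called transcribed, a larger part than inside. The shares there were 11.8% (9.23 to 14.7) for these and 6.63% (5.01 to 8.59) for the 799 others. For transcribed pseudogenes the intervals inside and outside thus overlap. Transposable elements are not a class of their own in the annotation and were not analysed as one, apart from protein-coding genes named for them. Whether the loci called pseudogenes include such elements was not tested.

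Non-coding RNA genes carried 58 pericentromeric hotspots, on 40 of 693 genes (5.77%, 4.16 to 7.78). Outside the windows the share was 5.00% of 4919 genes (4.41 to 5.65), within that interval. Among the 58 were 7 in and beside the ribosomal RNA unit of chromosome 3, described after their values were seen. Of these, 3 lay in AT3G41768, the 18S ribosomal RNA gene, at 4.94, 4.17 and 5.92 read equivalents. A further 3 lay in AT3G06365, an RNA of no stated function downstream, at 5.63, 4.75 and 5.98. All 7 were on the plus strand, which is the strand of the unit, and all 7 had non-whole values. Each of the 3 hotspots on the 18S gene was made wholly of 20-mers found elsewhere.

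At the level of genes, 785 of 2340 pericentromeric protein-coding genes had at least 1 hotspot on their exons (33.5%, 31.6 to 35.5). Over all nuclear protein-coding genes the share was 51.6%, and outside the windows 53.3% (52.7 to 54.0). Of the 785 genes, 407 had 1 hotspot, 200 had 2 and 178 had 3 or more, up to 8. Where a gene above 0 RPKM had hotspots, their bases covered a median of 56.9 nt per kb of exon in the windows and 58.5 outside.

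Part of the gap between 33.5% and 53.3% went with low ribosome-bound levels and short genes. In the windows 497 of 2151 measured genes were listed at 0 RPKM, and the genes above 0 had a median of 0.174 RPKM, against 0.251 outside. Among genes listed at 0, 7.04% had a hotspot inside (4.95 to 9.66) and 13.6% outside. In the lowest quintile of RPKM the shares were 17.0% (13.7 to 20.7) and 33.9%, in the second 40.9% (35.9 to 46.1) and 53.5%, and in the middle one 60.5% (54.8 to 66.1) and 69.3%. In the next they were 68.7% (62.3 to 74.6) and 73.0%, where the interval of the windows includes the value outside. In the highest they were 57.7% (51.8 to 63.6) and 65.6%. By length, genes above 0 RPKM with under 1 kb of exon had shares of 16.6% and 28.7%, and those over 3 kb had 88.2% (81.8 to 92.97) and 87.6%. Among genes above 0 RPKM with a hotspot the median level was 0.305 RPKM inside and 0.322 outside. Among genes above 0 RPKM without one it was 0.101 and 0.151, so genes listed at 0 are left out of these medians.

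**Figure D4:**
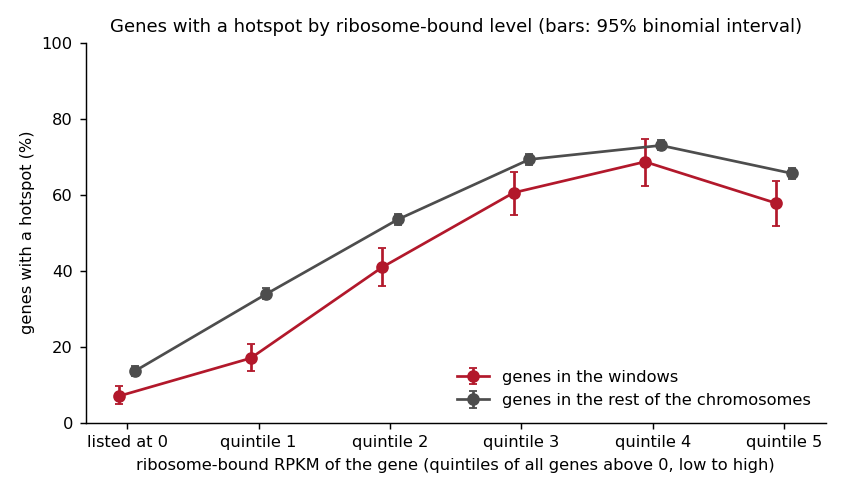
Share of protein-coding genes with a hotspot, in percent, by ribosome-bound RPKM of the gene (listed at 0, then quintiles of all genes above 0), with 95% binomial intervals. The share in the windows is below that outside in every group, from 7.04% against 13.6% at 0 to 68.7% against 73.0% in quintile 4.

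The genes with most hotspot bases included regulators and large enzymes. CHR38, also called CLSY1, came first with 7 hotspots over 569 nt. It encodes a chromatin remodeller that acts in DNA methylation directed by small RNAs. Its strongest hotspot, of 138 nt at 6 read equivalents, is shown as an example of a strong hotspot that lies wholly in coding sequence.
CHR38, chr3:14755934-14756071 (-): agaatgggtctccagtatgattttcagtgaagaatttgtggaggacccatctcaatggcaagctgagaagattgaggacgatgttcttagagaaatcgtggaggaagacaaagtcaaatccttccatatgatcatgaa

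MAPKKK9, a protein kinase at the head of a signalling cascade, had 7 hotspots over 548 nt. VPS11, which serves membrane fusion at the vacuole, had 6 over 513 nt. SFR6, a Mediator subunit needed for cold tolerance, had 7 over 511 nt. ACC1, the acetyl-CoA carboxylase that feeds fatty acid elongation, had 8 over 506 nt, the highest number in any gene of the windows. The SH3 domain gene AT2G07360 had 4 over 481 nt, and ACD1, which opens the ring of chlorophyll during its breakdown, had 7 over 461 nt. The nucleoporin gene AT2G05120 and AT5G27950, annotated as a nucleoside triphosphate hydrolase, had 7 each. PHYC, a red-light photoreceptor, had 6 over 447 nt. The ribosome-bound levels of these 10 genes ran from 0.115 RPKM (0.0272 to 0.317) for AT5G27950 to 2.08 RPKM (1.75 to 2.46) for ACC1. Relative to its exon length ACD1 was the most covered, with 229 hotspot nt per kb, and ACC1 the least, with 65.1.

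Genes of high ribosome-bound level stood on both sides. The 5 genes of highest level with one were AT2G07732 at 361 RPKM (346 to 377), AT2G07698 at 43.5 (40.9 to 46.3), RBCS3B at 38.0 (34.2 to 42.2), LHCB2.1 at 34.9 (31.4 to 38.6) and AT2G07671 at 30.02 (25.1 to 35.7). AT2G07732, AT2G07698 and AT2G07671 lie in the mitochondrial block and are annotated as a rubisco large chain, an ATP synthase alpha subunit and an ATP synthase subunit C. Their 2, 2 and 3 hotspots all held mitochondrial 20-mers, and the part of organelle transcripts in their levels was not tested. The 5 genes of highest level without a hotspot were LHCB2.2 at 33.5 RPKM, the ribosomal protein gene RP1 at 22.4, the kinetochore gene MIS12 at 17.8, the lipase gene AT5G33370 at 17.4 and AT2G09990, annotated with a ribosomal protein domain, at 16.2. In the mitochondrial span 38 of 93 genes had a hotspot (40.9%, 30.8 to 51.5), against 108 of 400 in the remainder of that window (27.0%, 22.7 to 31.6). The ends of the span were set by hotspots, so these shares are not independent of how it was drawn.

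Of 59 well-known pericentromeric genes placed in 5 lists by function, 48 had a hotspot, where 33.5% of all protein-coding genes in the windows and 51.6% of all nuclear ones did. Well-studied genes are not a sample of the window, and their median level of 1.18 RPKM is above the 0.103 of all measured window genes. All 11 genes for RNA, chromatin and DNA replication had at least 1, with a median of 4 per gene at a median level of 0.290 RPKM and a median exon length of 3792 nt. Their share of 100% (71.5 to 100) is near the 88.2% of all window genes above 0 RPKM with over 3 kb of exon. In that list CBP80, a subunit of the nuclear cap-binding complex, had 5. DDB1A, an adaptor of ubiquitin ligases, had 3, MCM2, a subunit of the replication helicase, had 2, and PCFS4, which acts in mRNA 3′ end formation, had 4.

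Of the photosynthesis and assimilation genes 11 of 15 (73.3%, 44.9 to 92.2) had a hotspot, with a median of 1 per gene at a median level of 10.5 RPKM. Besides RBCS3B and LHCB2.1, RBCS1B had 2 hotspots at 25.9 RPKM (22.4 to 29.7), and ACD1, the lowest of the list at 0.593 RPKM (0.299 to 1.05), had 7. The list of flower and shoot development had 10 of 13 genes with a hotspot, at a median level of 0.472 RPKM. OPR3, an enzyme of jasmonate synthesis needed for fertile stamens, had 2, and the auxin response factor ARF8 had 2. The blue-light receptor CRY1 had none at 1.84 RPKM (1.34 to 2.46). EPF2, a peptide that limits stomata, had 2 hotspots while its ribosome-bound level was listed at 0, with an upper bound of 0.634 RPKM.

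**Figure D5:**
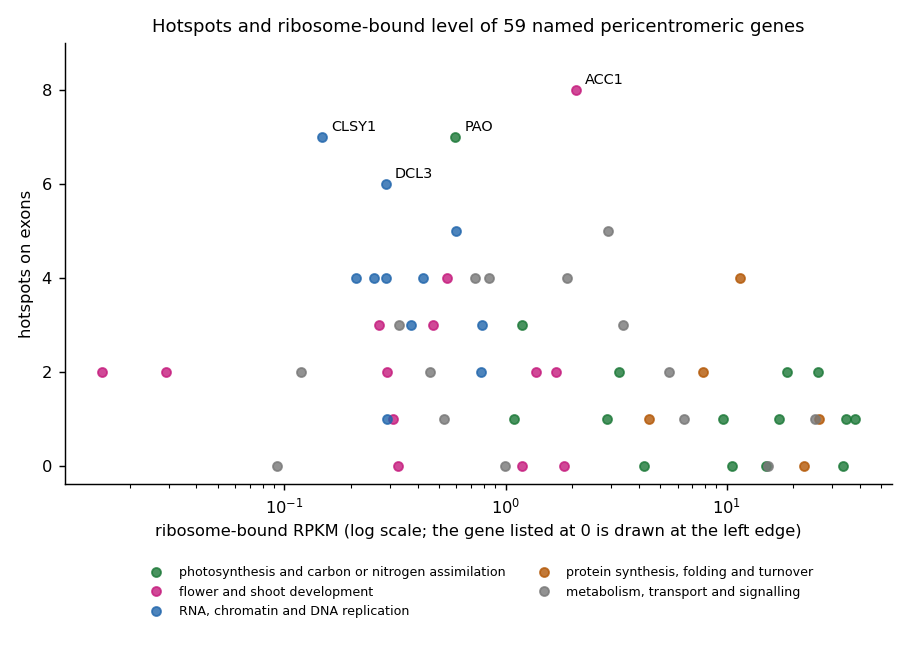
Number of hotspots on exons against ribosome-bound RPKM on a log axis for 59 pericentromeric genes in 5 lists, 1 point per gene. ACC1 stands highest with 8 hotspots at 2.08 RPKM, CLSY1 and PAO (ACD1) have 7 each, and 11 genes lie at 0 hotspots.

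Protein synthesis, folding and turnover genes had a hotspot in 4 of 5 cases. The polyubiquitin gene UBQ10 had 1 at 26.1 RPKM (23.7 to 28.6), the protease gene RD21A had 4 at 11.5 (9.89 to 13.2), the chaperone gene BIP1 had 2 at 7.86 (6.74 to 9.12), and the co-chaperone gene ATJ3 had 1 at 4.44 (3.50 to 5.56). Of the metabolism, transport and signalling genes 12 of 15 had a hotspot. The nucleoside diphosphate kinase gene NDPK1 had 1 at 25.1 RPKM (21.5 to 29.2), the calmodulin gene CAM7 had 1 at 6.42 and GRF1, a 14-3-3 protein, had 2 at 5.47. The nitrilase gene NIT1 had none at 15.4 RPKM (13.4 to 17.7), and neither did the sucrose synthase gene SUS4, the lowest at 0.0926 RPKM (0.01501 to 0.2997).

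Over all protein-coding genes the share with a hotspot was 33.5% in the windows and 53.3% outside, and groups taken by words in their product names are read against these. Among zinc finger genes 9 of 36 had a hotspot inside (25%, 12.1 to 42.2) and 61.1% of 473 outside. Among helicase genes 4 of 11 did inside (36.4%, 10.9 to 69.2) and 76.9% of 117 outside. Kinase genes had shares of 49.4% of 81 (38.1 to 60.7) and 65.0%. Cytochrome P450 genes had 22.2% of 18 (6.41 to 47.6) and 46.1%, which lies within the interval. Genes named for transposons or transposases had a hotspot in 0 of 27 cases inside, which allows a share of up to 11.1%, and in 12 of 39 outside. Their median level was 0.00106 RPKM inside and 0.0974 outside. Median levels were lower inside for zinc finger and helicase genes too, and higher for ribosomal protein, disease resistance and pentatricopeptide genes. No group was matched for level. F-box genes, 18.2% of 66 (9.76 to 29.6) inside and 22.7% outside, and RNA-binding genes, 61.5% of 13 (31.6 to 86.1) inside and 59.5% outside, were close. Ribosomal protein genes (7 of 23 inside, 47.7% outside), ubiquitin genes (9 of 28, 49.8%), disease resistance genes (7 of 17, 59.9%) and pentatricopeptide genes (8 of 14, 81.5%) each had an interval inside that includes the share outside.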

How the data were processed

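Each deposited hotspot has a position, a strand and a field that joins a score with a second position. Neither the labels nor the file state how the authors called and scored hotspots, and the list's deposited name gives an FDR of 5%. For the ribosome-bound library the authors deposited per transcript a count of clones, an estimated count of weighted clones, and RPM and RPKM values, per the file headers. RPKM values rest on 9574408 mapped clones and carry Poisson intervals from the weighted clones. No source used here states how deeply the library of hotspots was sequenced. cutadapt 0.9.5, Bowtie 0.12.7 and build TAIR9 are named in the submitters' processing notes. Intervals were read as BED, which leaves an uncertainty of 1 nt at their ends.

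Read equivalents are the hyperbolic sine of the negative score times the natural log of 2, which gives whole numbers from 1 to 6 for most hotspots. Genes and sequences came from RefSeq TAIR10.1, whose nuclear chromosomes are known to have the same sequence as TAIR9. As a check of register, 68.4% of pericentromeric hotspot bases lay in mRNA exons as listed, against 53.3% after a move of 100 nt and 37.3% after 1000 nt. A hotspot had a class if at least 1 base lay there on the same strand, in the order mRNA exon, intron, non-coding RNA, pseudogene, antisense, intergenic. RPKM is of the isoform with the longest coding sequence. Of 31280 loci in the table, 30548 were in the annotation. Sequence elsewhere means an exact 20-mer on either strand. Shares have exact binomial (Clopper-Pearson) intervals, densities exact Poisson intervals and ratios exact conditional intervals, and a count of 0 is given the limit of 3 counts. The intervals were tested on simulated data and treat hotspots as independent.

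The windows, members and gene lists were chosen with earlier results of these data known. Genes and hotspots were named by rule: the 10 strongest and 5 longest hotspots, those beside the longest gaps, the 10 genes with most hotspot bases, the 5 of highest RPKM with and without a hotspot, and the 4 highest and the lowest of each list. RBCS2B, RBCS1A and the ribosomal RNA unit of chromosome 3 were named outside this rule. Among the 10 strongest hotspots, 6 were tied with others and were not described. Python 3.11.15, NumPy 2.4.6, pandas 2.3.3, SciPy 1.17.1 and Matplotlib 3.10.9 were used.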

Additional observations from a re-analysis of the deposited data

How the results depend on the processing

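The density in the windows relative to the rest, 0.246, stayed below 1 under all 13 alternatives. It was 0.149 with windows narrowed by 1 Mb at each end, 0.291 with windows widened by 0.5 Mb, 0.228 without chromosome 2, 0.269 without chromosome 3, 0.196 for hotspots with no 20-mer elsewhere, and 0.222 without mitochondrial 20-mers, the last chosen after seeing the data. It was 0.736 for hotspots of every class per protein-coding gene and 0.759 for mRNA hotspots per kb of exon. The median score became -2.75 in narrowed windows and -3.34 for scores stronger than the median, where the median length was 69 nt, against 68 nt outside. The mRNA share was 60.0% in narrowed windows, 76.9% for the stronger scores, 68.5% when at least 50% of the hotspot had to overlap, and 75.7% without mitochondrial 20-mers. The share of genes with a hotspot was 44.7% among genes above 0 RPKM and 27.8% in narrowed windows. The share on the plus strand moved within its interval under its 10 alternatives, and the median RPKM of genes with a hotspot under its 2. No paired analysis was possible because each assay had 1 library. Weak genes rest on few clones, so single RPKM values near 0 are imprecise, and hotspots carry no depth of their own.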
